A study of Homo sapiens with 6 samples.

Results

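The genes described here encode 9 molecules by which tumor cells restrain immune cells. They are the B7 family ligands CD274, PDCD1LG2, CD276, VTCN1 and VSIR, and the 4 molecules CD47, IDO1, LGALS9 and NT5E, which act outside that family. They were chosen by gene symbol for these functions, out of 19792 genes in the deposited table, and all 9 have a row there. The choice was made with the DOX results of the same table in view, which are not used as evidence below.

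RNA-seq was performed on BT-549, a line of human breast cancer cells of the triple-negative type, in which a WDR5 shRNA from a tetracycline-inducible vector is switched on by doxycycline (DOX). WDR5 is a core subunit of the COMPASS complexes that methylate histone H3 at lysine 4. The vehicle group (0.1% DMSO) and the DOX group (500 ng/ml over 7 days) had 3 cultures each. Every culture carried the WDR5 shRNA and puromycin resistance, and no culture with a control shRNA under DOX is part of these data. All 6 libraries come from 1 cell line grown without immune cells. The study asked what WDR5 silencing changes. The measurement analysed here is the mean normalized count of each gene, averaged by the authors over all 6 libraries, which describes how strongly each gene was expressed in these cells and does not separate DOX from vehicle. A mean over both treatments carries no replicate error, so no difference between genes was tested, and neighbours in the order of levels cannot be told apart by their spread. The depth of each library is unknown.

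Immune checkpoints are brakes on immune cells. CD274 (PD-L1) and PDCD1LG2 (PD-L2) bind the receptor PD-1 on T cells, CD47 binds SIRPA on macrophages as a signal against engulfment, and NT5E (CD73) and IDO1 are enzymes that make adenosine and kynurenine, small molecules that suppress T cells. Interferon-gamma, which signals through JAK kinases, is the best known inducer of CD274 and IDO1.

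The 9 genes spread over a wide range of expression. NT5E, CD47 and IDO1 were above the 90 percentile of all genes, CD276 was above the upper quartile, CD274, PDCD1LG2, VSIR and LGALS9 were near the middle of all genes in the table, and VTCN1 was lowest of the 9, at the 21.6 percentile by count. Together they had a summed mean normalized count of 33464, which is 0.126% of the 26551206 summed over all genes, and NT5E alone held 64.9% of it. Of the 9 genes, 8 had a mean normalized count of at least 10, against 68.5% of all genes. The count was above the median of all genes, 187, for 7 of them. A longer transcript gives more reads, so levels of different genes were compared after division by the length in kilobases of the canonical transcript of GENCODE 44. On this scale 6 of the 9 were above the median of 80.6 per kb, and their own median was 99.5 per kb.

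**Figure D1:**
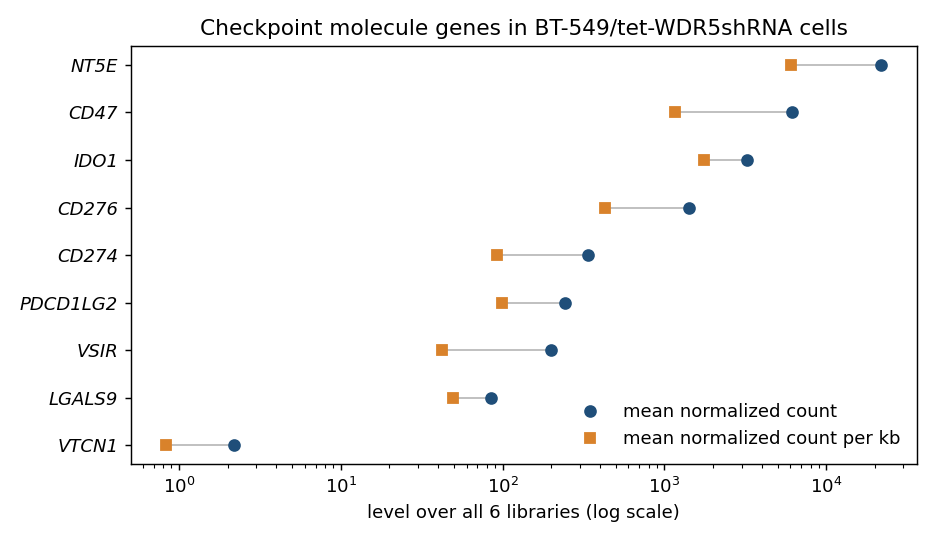
Level of the 9 genes over all 6 libraries, on a log axis, as mean normalized count (circles) and as mean normalized count per kb of canonical transcript (squares), with no error bars because only the pooled mean was analysed. NT5E is highest on both scales and VTCN1 lowest, and the order of CD47 and IDO1, of CD274 and PDCD1LG2, and of VSIR and LGALS9 differs between the scales.

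NT5E, the ectoenzyme that removes the phosphate from extracellular AMP to leave adenosine, had a mean normalized count of 21729, the 107th highest of the table. Per kb its level was 6100, at the 98.8 percentile of the 18310 genes with a length. The gene lies on chromosome 6 of GRCh38 from 85449584 to 85495791, on the plus strand, and its canonical transcript has 9 exons. No other annotated gene overlaps it. Its level per kb was 5.22 times that of CD47 and 3.46 times that of IDO1.

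CD47, a membrane protein of nearly all cells, had a mean normalized count of 6183, at the 95.8 percentile. Of its canonical transcript of 5292 bases, 18.3% is coding, so most of its reads can come from the untranslated part. Per kb, the level was 1168 and the percentile 91.1. CD47 lies on chromosome 3 from 108043091 to 108091862, on the minus strand.

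IDO1, the cytosolic enzyme that opens the ring of tryptophan as the first step toward kynurenine, had a mean normalized count of 3262. Its transcript is short, at 1849 bases, and per kb the level of 1764 placed it at the 94.3 percentile, above CD47. The gene lies on chromosome 8 from 39902275 to 39928790. A long noncoding RNA on the other strand shares 120 exonic bases with it, and how the authors' gene counting treated strand is not given in the sources used here.

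The B7 family genes had lower levels than those 3. CD276 (B7-H3), on chromosome 15 from 73683966 to 73714514, led them with a mean normalized count of 1423. Its level of 432 per kb, at the 77.3 percentile, was 4.66 times that of CD274 and 4.34 times that of PDCD1LG2. The other 4 B7 members were all below a mean normalized count of 500.

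CD274 and PDCD1LG2 are neighbours on chromosome 9, on the same strand. CD274 spans 5450503 to 5470566 and PDCD1LG2 spans 5510531 to 5571282, with 39964 bases and no other protein-coding gene between them. CD274 had a mean normalized count of 337 and PDCD1LG2 one of 242. Per kb the order was the other way, with 92.7 for CD274 and 99.5 for PDCD1LG2, since the canonical transcript of CD274 has 3634 bases and that of PDCD1LG2 has 2432. Both lay just above the median of all genes, at the 51.9 and 52.8 percentiles per kb. The pooled levels of both PD-1 ligands were thus close to each other, and they do not give the level in either treatment.

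VSIR (VISTA), a B7-like protein best known from myeloid cells, had a mean normalized count of 200 and a level of 42.5 per kb, at the 43.1 percentile. It lies on chromosome 10 from 71747556 to 71773520, inside the span of CDH23, which runs on the opposite strand and shares no exonic base with it. CDH23 had a mean normalized count of 0.852. The part of CDH23 reads in the VSIR value was not tested.

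VTCN1 (B7-H4), which is best known from epithelial cancers, was barely detected. Its mean normalized count was 2.19 and its level 0.839 per kb, at the 16.4 percentile. CD276 was 515 times higher per kb. VTCN1 lies on chromosome 1 from 117143587 to 117210960.

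LGALS9 (galectin-9), a secreted lectin that binds TIM-3, had a mean normalized count of 85.1. Of the 9 genes it has the least certain level per kb, because its 16 annotated transcripts differ in length. With the canonical transcript of 1724 bases the level was 49.4 per kb, above VSIR, and with the longest transcript of 3018 bases it was 28.2, below VSIR. The near-identical copies LGALS9B and LGALS9C had mean normalized counts of 0.411 and 0.124, so that few reads were assigned to them. How reads that fit several copies were counted is not given in the sources used here. LGALS9 lies on chromosome 17 from 27629798 to 27649560 and shares 294 exonic bases with another protein-coding gene on the same strand that has no row.

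**Figure D2:**
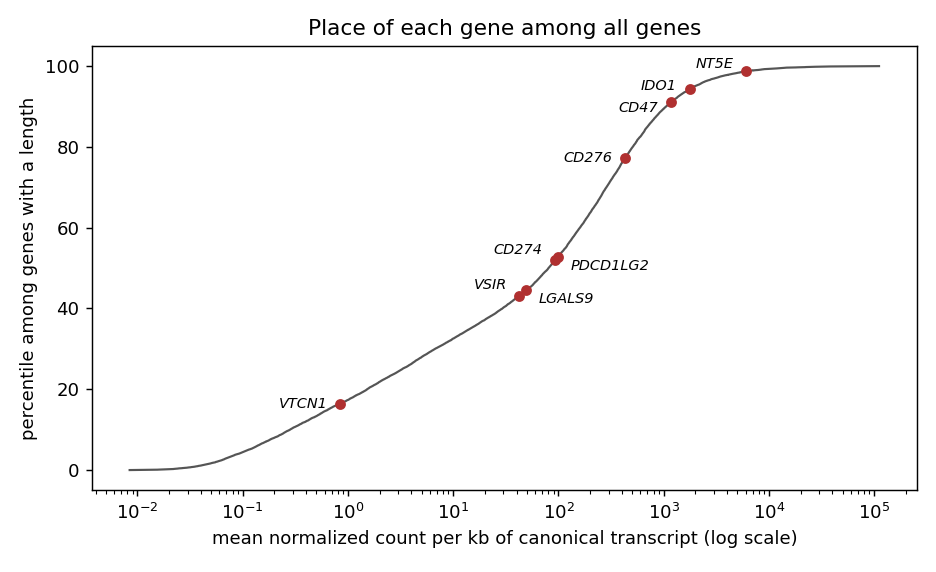
Percentile of each gene among the 18310 genes with a transcript length (vertical axis) against its mean normalized count per kb on a log axis; the line is all genes and the red points are the 9 described here. NT5E, IDO1 and CD47 lie above the 90 percentile, CD276 at the 77.3 percentile, 4 genes between the 43.1 and 52.8 percentiles, and VTCN1 at the 16.4 percentile.

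Markers of the labelled cell type and of immune cells were examined. Of 14 immune cell markers, 4 had no row and 7 had a mean normalized count under 10, among them CD4 and CD8A, whereas CD68, a lysosomal protein not limited to macrophages, was at 1813. PTPRC, the pan-leukocyte marker, was at 44.7 and CD14 at 24.0. Of all genes, 68.5% had a mean normalized count of at least 10. ESR1 and PGR were at 0.790 and 0.801, and ERBB2, which is not amplified in triple-negative cancers, was at 1221, the 68.9 percentile per kb. The mesenchymal genes VIM, FN1, ZEB1 and CDH2 were at 47782, 30461, 7333 and 4093, whereas the epithelial genes KRT18, CDH1, KRT8 and EPCAM were at 435, 59.6, 57.3 and 1.30. Per kb, however, KRT18 was at 308, the 71.4 percentile, above the median of all genes. CDH1, KRT8 and EPCAM were below that median. WDR5 itself, lowered by design in 3 of the 6 libraries, had a mean normalized count of 1143.

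The genes of the pathways in which these molecules act were listed by function and described in the same way. In the adenosine pathway, of 14 genes, 13 had a row. Of these, 9 had a mean normalized count of at least 10, near the 68.5% of all genes. The level of 5 was above the median per kb. The highest per kb were the adenosine receptor ADORA2B at 774, the adenosine kinase ADK at 721 and the nucleoside transporter SLC29A1 at 544. ENTPD1 (CD39), which makes the AMP that NT5E uses from ATP, was at a mean normalized count of only 1.68, and ADORA3 had no row. ENPP1, another enzyme that makes AMP from ATP, was at 912, or 123 per kb, and NT5E was 49.8 times higher than ENPP1 per kb. ADORA2A, the adenosine receptor best known from T cells, was at 0.296.

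Of the 13 genes of the tryptophan pathway, 11 had a mean normalized count of at least 10, against 68.5% of all genes. The level of 9 was above the median per kb. TDO2, the other main enzyme that opens tryptophan, had a level of 4648 per kb, which is 2.63 times that of IDO1. The highest were WARS1, the tryptophanyl-tRNA synthetase, at 10668 per kb (listed under its older symbol) and SLC3A2, the heavy chain of the amino acid exchanger that carries tryptophan and kynurenine, at 5055 per kb. HAAO and IDO2 were low, with mean normalized counts of 0.642 and 6.70. AHR, the receptor that kynurenine activates, was at 2074 per kb.

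Of the 10 receptors and partners listed, 6 had a mean normalized count of at least 10, against 68.5% of all genes, and 4 were above the median per kb. The 4 genes under 10 were HAVCR2 (TIM-3) at 2.95, CD80 at 0.868, IGSF11 at 0.832 and PDCD1 (PD-1) at 0.172. SELPLG and SIRPG were at 32.5 and 20.2. The highest per kb were CD44 at 8845, THBS1 at 1392 and RGMB at 693, which are adhesion or matrix proteins and a BMP co-receptor known to bind LGALS9, CD47 and PDCD1LG2 respectively. SIRPA, the receptor of CD47, was at 489 per kb, and CD47 was 2.39 times higher.

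Among 5 other B7 family genes, NCR3LG1 (B7-H6), a ligand of natural killer cells, was at 147 per kb, ICOSLG at 15.2 and CD80 at 0.317. NCR3LG1 alone was above the median of all genes. CD86 and HHLA2 had mean normalized counts of 0.172 and 0.430. Of 13 other galectin genes, 7 had a row, and LGALS1 and LGALS3 were at 28721 and 8775 per kb, 582 and 178 times higher than LGALS9. These ratios use the canonical transcripts, and the level of LGALS9 per kb was lower with its longest transcript. LGALS8 was at 101 per kb. LGALS2, LGALS7, LGALS7B, LGALS13, LGALS14 and LGALS16 had no row.

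All 9 genes of the interferon-gamma pathway had a mean normalized count of at least 10, against 68.5% of all genes. Of the 9, 8 were above the median per kb. The receptor chain IFNGR1 was at 2558 per kb and the kinase JAK1 at 2449. SOCS1, an inhibitor of this pathway, was lowest with a mean normalized count of 15.4. All 7 listed genes that act on the checkpoint proteins after translation also had a mean normalized count of at least 10. Of the 7, 5 were above the median per kb. COPS5, which stabilizes PD-L1 by removing ubiquitin, was at 2642 per kb, the ubiquitin ligase STUB1 at 857 and CMTM6, which keeps PD-L1 at the cell surface, at 682. QPCTL, which modifies CD47 for binding to SIRPA, was at 281 per kb.

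**Figure D3:**
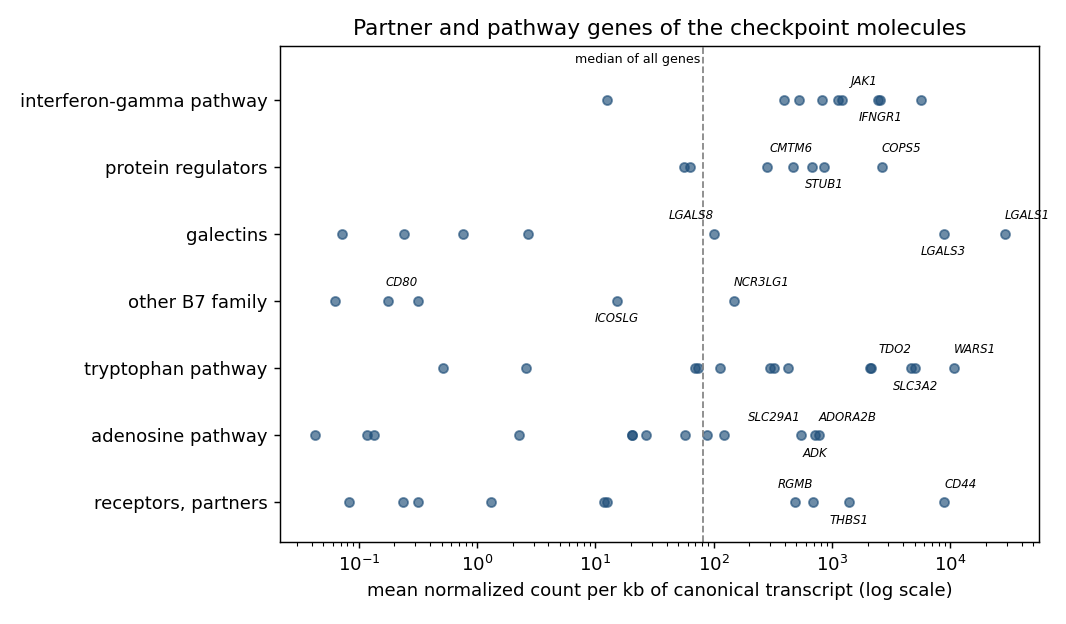
Mean normalized count per kb (log axis) of the genes of 7 partner and pathway lists, each point being 1 gene, with the leading genes of each list named and the median of all genes as a dashed line. The interferon-gamma list has 8 of 9 genes to the right of the line, whereas the other B7 family genes have 1 of 5 there.

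Promoter sequence was set beside level, since a promoter rich in CpG dinucleotides is a common feature of broadly expressed genes. RefSeq promoter windows on GRCh38.p14, from 250 bases before to 50 bases after the start site, were matched for 7 of the 9 genes, all but IDO1 and PDCD1LG2. Across 12458 protein-coding genes with a window, the Spearman correlation of CpG number with mean normalized count was 0.307, a description across genes that share libraries and base composition. The median mean normalized count was 4.19 for the 1193 genes with at most 4 CpG and 779 for the 6318 genes with at least 25.

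The windows of CD47, NT5E, CD276 and VSIR held 45, 37, 37 and 35 CpG, above the median of 25, and that of CD274 held 22. The windows of VTCN1 and LGALS9 held 7 and 2. Only the first window listed for each gene was used. The windows of NT5E, CD47, CD276 and LGALS9 lie inside the annotated genes. That of LGALS9 begins at 27630938 and the gene at 27629798. Annotated starts upstream of these windows were not examined. The 2 genes with the fewest CpG were also the 2 with the lowest mean normalized counts of the 7. Per kb of canonical transcript this did not hold, since VSIR was at 42.5, below LGALS9 at 49.4. With the longest transcript LGALS9, at 28.2, was below VSIR. VSIR combined a CpG-rich window with a middling level by count. For 4 windows, the bases before the start site are printed up to the first base that an annotated exon of the gene covers. The CD47 stretch lies inside the annotated gene, which runs to 108091862. The strand of the gene is shown 5′ to 3′ with each CpG in capitals. The range runs from the CpG-rich CD47 to the CpG-poor VTCN1.

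CD47, chr3:108091032-108091281, minus strand, 39 CpG in 250 bases:
CD47: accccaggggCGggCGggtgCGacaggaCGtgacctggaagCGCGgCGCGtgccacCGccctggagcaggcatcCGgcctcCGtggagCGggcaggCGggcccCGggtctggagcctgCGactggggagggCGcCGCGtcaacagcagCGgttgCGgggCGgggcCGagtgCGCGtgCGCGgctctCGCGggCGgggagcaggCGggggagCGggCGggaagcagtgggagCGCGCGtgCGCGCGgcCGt
VSIR, chr10:71773521-71773770, minus strand, 25 CpG in 250 bases:
VSIR: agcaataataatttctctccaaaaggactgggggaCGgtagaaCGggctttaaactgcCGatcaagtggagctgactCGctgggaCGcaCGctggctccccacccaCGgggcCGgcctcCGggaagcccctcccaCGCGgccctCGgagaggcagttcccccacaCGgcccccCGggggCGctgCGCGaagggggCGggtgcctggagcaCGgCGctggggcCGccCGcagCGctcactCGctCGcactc
CD274, chr9:5450292-5450502, plus strand, 9 CpG in 211 bases:
CD274: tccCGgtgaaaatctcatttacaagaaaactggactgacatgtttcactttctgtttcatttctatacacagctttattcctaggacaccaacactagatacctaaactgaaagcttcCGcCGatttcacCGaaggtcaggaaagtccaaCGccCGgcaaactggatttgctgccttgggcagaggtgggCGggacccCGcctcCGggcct
VTCN1, chr1:117210961-117211177, minus strand, 5 CpG in 217 bases:
VTCN1: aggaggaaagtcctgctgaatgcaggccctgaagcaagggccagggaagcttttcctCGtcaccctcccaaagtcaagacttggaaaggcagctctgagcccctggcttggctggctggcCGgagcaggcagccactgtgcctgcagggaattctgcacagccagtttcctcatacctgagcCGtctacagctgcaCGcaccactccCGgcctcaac

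Motifs of the factors that the study and the interferon pathway concern were searched on both strands of these windows. The IRF motif AANNGAAA was found 4 times in the CD274 window and once in that of LGALS9. In the CD274 window, 3 neighbouring copies at -208, -202 and -196 from the start site (counted to the leftmost base of the motif) overlap. The motif occurs in 23.2% of all 27303 promoter windows. The NF-κB motif was found once in the VSIR window, at -130, against 5.72% of windows. The AP-1 motif TGANTCA was found once in the VTCN1 window, at position 2, against 7.76% of windows. The TATA motif TATAAA was in none of the 7 windows and in 12% of all. A match describes the letters in a window and is no measure of binding.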

How the data were processed

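RNA-seq was performed on 3 vehicle and 3 DOX cultures. By the paper's methods and the labels, libraries were made by the authors with a stranded mRNA kit, STAR was the aligner and GRCh38 the genome, and counts were normalized with DESeq2. As deposited, each gene symbol has 1 signal value, the mean of its normalized counts over all 6 libraries. The 5 remaining columns hold the authors' own comparison of DOX with vehicle (log2 fold change, its standard error, the test statistic, and p-values before and after adjustment), and were not used here. Tool versions and the strand setting of the counting are not given in the sources used here, the labels name a column kit for RNA where the methods name Trizol, and the time of 7 days is from the paper. No values of single libraries were analysed, so the planned count test of DOX against vehicle was not run.

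Of 19792 symbols, 17729 matched GENCODE 44 by name and 581 by an older symbol. The levels per kb used the exonic length of the canonical transcript. Percentiles are the share of genes with a lower value, with tied genes split equally between lower and higher. The calculation was checked on values placed at known quantiles of the mean normalized counts, which tests the arithmetic only. The members and lists were chosen with earlier results of these data known. All 9 genes are named, with WDR5, the cell markers, the 3 highest genes per kb of each list and those with no row, except 1 gene and its motif, which are not reported here. Other partner genes that are named (ENTPD1, ENPP1, ADORA2A, IDO2, HAAO, AHR, PDCD1, HAVCR2, IGSF11, SELPLG, SIRPG, SIRPA, CD86, HHLA2, SOCS1 and QPCTL) were chosen after their values were seen, as were the promoter windows, CpG numbers and motifs. Python 3.11.15 was used with numpy 2.4.6, scipy 1.17.1 and matplotlib 3.10.9.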

Additional observations from a re-analysis of the deposited data

How the results depend on the processing

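The order of the 9 genes per kb was the same for 35 of 36 pairs with the longest transcript or with the union of all exons in place of the canonical one. The exception was LGALS9, whose level per kb fell from 49.4 to 28.2 and 14.9, below VSIR at 42.5 and 38.9. With the union of exons, the levels of CD47, IDO1 and CD276 were also over 1.5 times lower, at 751, 935 and 260 per kb. CD274, PDCD1LG2 and NT5E were then at 82.0, 99.5 and 4794 per kb. The ratios per kb given above use the canonical transcripts and depend on this choice. Against protein-coding genes, or against genes whose mean normalized count reached 10, 4 in place of 6 genes were above the median per kb. CD274 and PDCD1LG2 were then below it, at the 45.1 and 46.1 percentiles of protein-coding genes, and CD47 was at the 89.6. Among genes that reached 10, the percentiles per kb were 32.4 for CD274, 33.7 for PDCD1LG2, 20.5 for VSIR, 22.4 for LGALS9 and 87.5 for CD47, so the 4 lower genes were not near the middle of those. CD276 fell below the upper quartile, at the 73.6 percentile per kb of protein-coding genes and the 68.0 of genes that reached 10. By count, IDO1 was at the 85.8 percentile of genes that reached 10. Adding LGALS9B and LGALS9C moved LGALS9 from 85.1 to 85.6. With a minimum of 50 in place of 10, the numbers of genes past it changed by at most 1.5 times in the 7 partner and pathway lists, and fell from 3 to 1 for the immune cell markers. The list counts above the median per kb were taken against all genes and not redone against protein-coding genes, whose median was 127. ENPP1 and LGALS8, at 123 and 101 per kb, were among the genes above the former median and below the latter. No paired analysis was possible because only a mean over all 6 libraries was analysed, and leaving out replicates was not run for the same reason. The protein sequence comparison planned for the B7 genes was not run, since no protein table was used. Differences between genes could not be set against culture spread.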
